A study of Homo sapiens with 6 samples.

Results

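The start sites described here belong to 19 genes whose symbols mark them as DNA repair or genome stability genes. The rule that chose them uses names alone, from stems such as FANC, XRCC, ERCC, PARP, POLD, POLE and SMC. It was applied to the 3000 transcription start sites (TSSs) in the density tables, with earlier results of these data known. Described by name are SMC3, NEIL2, XRCC6BP1, ERCC3, POLD2, PARP4, PARP1, RIF1, PARP14, POLQ, ERCC6L, POLE4, POLD3, FANCD2OS, FANCF, XRCC5, XRCC2 and PARP12. The longer list of 9944 TSSs holds 30 that fit the name rule, and 11 of these have no density values. Over that whole list, 3000 of 9944 TSSs have density values. Among the 11 genes are ATRNL1, ATRX, BRCA1, PARP8, PARP10, PARP15, RAD21L1 and XRCC4, and all 11 are not analysed here. Their BrU-seq levels (labelling of nascent RNA over gene bodies, unit not given) reached 0.673 at most, below the lowest level of any TSS with density, 0.693.

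Binding of tagged CFAP20 was measured by chromatin immunoprecipitation and sequencing with an antibody against the TY epitope, in RPE1, a line of immortalised retinal pigment epithelial cells of human origin. Each of 2 untreated groups had 3 samples. The WT group was RPE1 iCas9 p53/puro-dKO without a TY tag, and shows what the antibody recovers with no tag present. The second group, called TY-CFAP20 below, was the same line with CFAP20-KO and TY-CFAP20. Both groups therefore share the p53/puro double knockout and iCas9. What drives the tagged gene, and whether the knockout line is 1 clone, is not given in the labels. Immunoprecipitation started from 84 µg of chromatin in WT and 60 µg in TY-CFAP20, and the Drosophila chromatin added as spike-in weighed 74 ng and 53 ng. Of 10 pigment epithelium markers, 4 were among the 9944 TSSs and 3 had a BrU-seq level. RPE65, a defining marker, was listed without one, and MITF and OTX2 were among the 3000. Of 7 markers of other lineages, 4 were among the 9944 TSSs and 2 had a BrU-seq level, and SFTPB was among the 3000.

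All densities are the authors' averages over a group, normalised to the spike-in. Errors between replicates and p-values are therefore lacking, and every difference below is TY-CFAP20 minus WT between 2 averages. A level is the mean density within 500 bp of the listed TSS unless stated, and the flanks are the outermost 1 kb on each side of a table that reaches 5 kb from the TSS. Library totals are not known from these values. Over the members, the mean WT density equals 7.94 to 32.9 fragments covering a position, and that of TY-CFAP20 13.2 to 31.1, so single positions rest on few fragments. Fragments over a whole window were not counted. As a scale for local scatter, each TSS window was set beside 8 windows of 1 kb farther out in the same locus.

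DNA repair is carried out by several partly separate pathways. Base excision repair removes damaged bases, nucleotide excision repair removes bulky lesions, and end joining and homologous recombination mend double-strand breaks. The Fanconi anaemia pathway unhooks crosslinks between DNA strands. Several members also serve ordinary replication or chromosome structure, such as the polymerase subunits and the cohesin subunit SMC3. A few carry a repair symbol for other reasons. XRCC6BP1, now named ATP23, encodes a mitochondrial metallopeptidase homologue, ERCC6L encodes a translocase that acts on DNA bridges in anaphase, and FANCD2OS is named for lying opposite FANCD2.

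The sequences below show the base composition of single members, since the difference at the listed TSSs of the members ran with GC content. Centred on the canonical start this relation was weaker (values below). These sequences are shorter than the window of that relation, and their GC content does not follow the order of differences. It was 56% in SMC3, 74% in POLD2 and 45.3% in PARP12. Within 500 bp of the listed TSS, the window of the relation, GC content was 63.8%, 62.8% and 47.2% in the same order. SMC3 and POLD2 had among the highest differences, while PARP12 had the lowest and was listed far from the annotated gene start. Each runs from 250 bases before to 50 bases after the listed TSS, 5′ to 3′ on the gene's strand, read from hg38, with CpG dinucleotides in capitals. The positions are chr10:110567441-110567740 (+) for SMC3, chr7:44123460-44123759 (-) for POLD2 and chr7:140063673-140063972 (-) for PARP12.
SMC3: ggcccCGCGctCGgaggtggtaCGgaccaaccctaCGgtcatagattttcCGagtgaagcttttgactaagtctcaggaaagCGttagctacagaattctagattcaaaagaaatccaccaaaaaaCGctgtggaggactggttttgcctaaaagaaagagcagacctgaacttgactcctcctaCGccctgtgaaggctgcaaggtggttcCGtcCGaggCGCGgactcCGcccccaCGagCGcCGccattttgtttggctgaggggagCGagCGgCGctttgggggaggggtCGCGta
POLD2: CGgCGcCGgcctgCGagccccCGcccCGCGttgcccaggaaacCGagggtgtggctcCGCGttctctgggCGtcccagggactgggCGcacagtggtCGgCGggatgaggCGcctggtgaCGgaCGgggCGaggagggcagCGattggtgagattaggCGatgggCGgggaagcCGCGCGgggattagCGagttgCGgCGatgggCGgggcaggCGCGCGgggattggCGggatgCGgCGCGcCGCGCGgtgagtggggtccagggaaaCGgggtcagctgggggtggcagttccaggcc
PARP12: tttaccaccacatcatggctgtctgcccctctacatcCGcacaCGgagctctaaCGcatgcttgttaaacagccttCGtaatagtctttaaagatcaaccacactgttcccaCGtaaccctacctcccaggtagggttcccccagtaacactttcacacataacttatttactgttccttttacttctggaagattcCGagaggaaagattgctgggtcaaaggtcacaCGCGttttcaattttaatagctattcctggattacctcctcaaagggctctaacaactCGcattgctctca
SMC3 holds 22 CpGs in these 300 bases and POLD2 39, against 9 in PARP12. The median was 21 over the 19 members and 22 over the 3000 TSSs. The windows of SMC3 and POLD2 take in the 5′ end of the first annotated exon of each gene, whereas the window of PARP12 lies upstream of it.

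The first question was whether tagged CFAP20 lies at repair genes above the antibody background. TY-CFAP20 was higher than WT at 17 of the 19 members (89.5%), and at 91.2% of all 3000 TSSs. Averaged over the members, TY-CFAP20 density was 1.32 and WT density 0.768. Their ratio was 1.72, against 1.71 over all TSSs. The median difference was 0.586, from -0.120 at PARP12 to 1.23 at SMC3, and 0.571 over all TSSs. After adding 0.668 to both densities (the median flank density of WT), 7 members (36.8%) were at least 1.5-fold higher and 0 at least 2-fold. The corresponding shares of all TSSs were 34.9% and 1.77%. The 7 members depended on the setting, with 1 after scaling to the flanks, 0 within 1000 bp or with 4 times the added value, and 15 with nothing added, when 6 were at least 2-fold higher. Shares of all TSSs were not computed for these other settings. Whether the members moved more than other TSSs is therefore not known. In the main setting the members stood close to the average TSS. Their differences ran from percentile 4.13 of all TSSs (PARP12) to percentile 95.3 (SMC3).

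**Figure D1:**
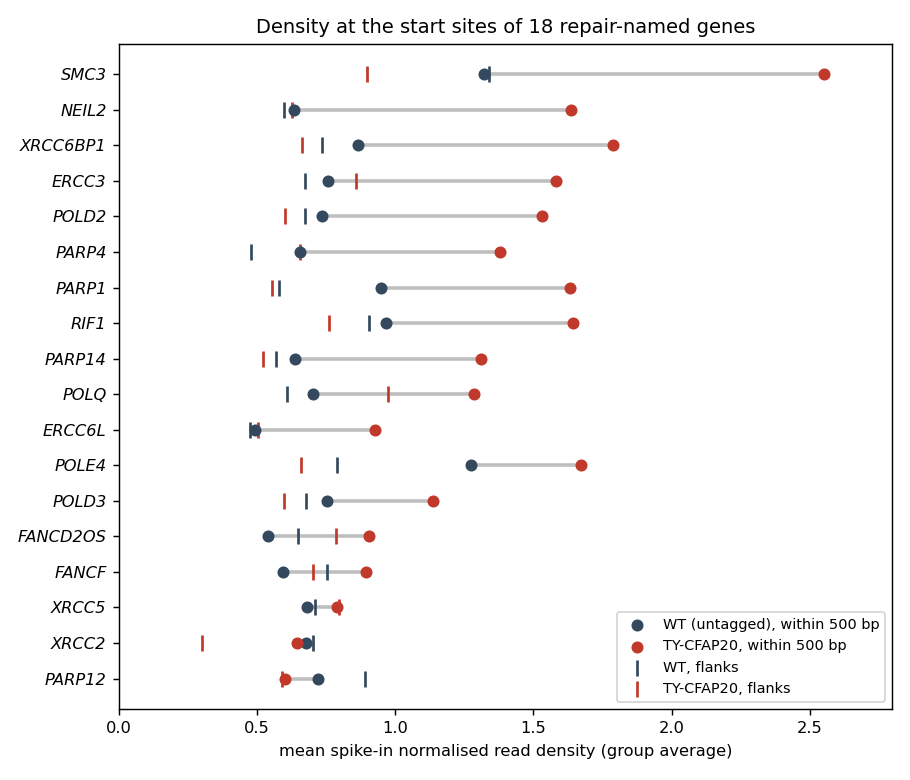
Mean spike-in normalised read density for 18 of the 19 genes (rows, ordered by difference), with dots for the window within 500 bp of the listed TSS and ticks for the flanks, each the authors' average over 3 samples. SMC3 reaches 2.55 in TY-CFAP20, while XRCC2 and PARP12 have TY-CFAP20 dots to the left of WT.

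The members' mean profile had a narrower and taller summit than the mean of all TSSs. Its difference was highest at -30 bp, at 1.01, where all TSSs reached 0.785 at -20 bp. Its width at the level midway from flank to summit reached from -200 to 340 bp, against -300 to 490 bp over all TSSs. TY-CFAP20 flanks averaged 0.685 at the members, or 0.979 times the WT flanks, against 1.14 over all TSSs. The TSS ratio was thus 1.76 times the flank ratio at the members and 1.497 times over all TSSs. Without the 2 members in low-signal stretches (below), it was 1.74 times at the members and 1.49 times over the remaining TSSs. A mean of 19 profiles scatters more than a mean of 3000, and whether the narrower summit exceeds that scatter was not tested.

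**Figure D2:**
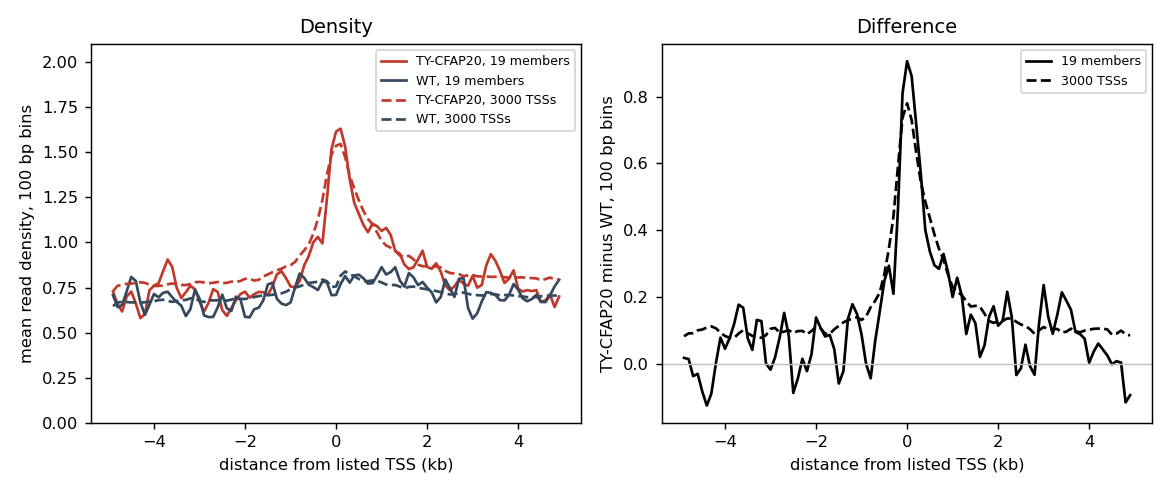
Mean read density (left) and TY-CFAP20 minus WT (right) in 100 bp bins against distance from the listed TSS in kb, with solid lines for the 19 members and dashed lines for all 3000 TSSs. The solid difference curve is higher at the TSS and close to 0 in the flanks, where the dashed curve stays near 0.0967.

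At 13 of the 19 members (68.4%) the TSS window exceeded all 8 other windows of its locus, as it did at 63% of all TSSs. Among the exceptions were ERCC6L, where the highest other window (0.496) was above the TSS (0.434), and FANCD2OS (0.567 and 0.369). FANCF, XRCC5 and PARP12 were also exceptions. The difference was larger on the gene side than upstream at 13 members (68.4%), against 60% of all TSSs. From 500 to 1000 bp downstream the members' mean difference was 0.288, and over the same distance upstream it was 0.0689. Both were below the values of all TSSs, 0.327 and 0.184.

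The highest member was SMC3, a core subunit of cohesin, the ring that holds sister chromatids together (chromosome 10, TSS at 110567691, hg38). TY-CFAP20 stood at 2.55 and WT at 1.32, and the difference of 1.23 exceeded that of 95.3% of all TSSs. In its flanks the order was the opposite, with 0.898 in TY-CFAP20 and 1.34 in WT. Both groups were high here, since its WT density exceeded that of 98.5% of TSSs. SMC3 lies on the part of chromosome 10 beyond 60 Mb where both groups had high flanks, at 1.51 times the level of other chromosomes in WT and 1.58 times in TY-CFAP20. Within that region its difference stood at percentile 73.5 of 113 TSSs, and by log2 ratio (0.69) at percentile 78.6 of all TSSs. The other windows of the locus ran from -0.574 to 0.409. An origin centre mapped by OK-seq (sequencing of Okazaki fragments) lay 15.2 kb away, the nearest of any member. By the correlation of difference profiles over 41 bins of 100 bp, the members most like SMC3 were RIF1 (0.56), NEIL2 (0.49) and POLE4 (0.48).

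Base excision and single-strand break repair were represented by NEIL2 and PARP1, both above the median TSS. NEIL2, a glycosylase that removes oxidised bases, had 1.64 in TY-CFAP20 and 0.633 in WT. Its log2 ratio of 0.82 was the highest of the members and exceeded 90.8% of all TSSs. The flanks of NEIL2 were at 0.627 and 0.595, but another window of its locus reached a difference of 0.716 against 1.00 at the TSS. PARP1, the enzyme that marks breaks with poly(ADP-ribose), had 1.63 and 0.947. PARP1 was among the more transcribed members, with a BrU-seq level of 6.45. Its flanks were at 0.555 and 0.579. Scaling each TSS to its surroundings, by the TY-CFAP20 over WT ratio of flanks summed for 11 adjacent TSSs, lowered PARP1 from percentile 61.0 of all TSSs to percentile 36.3. That running flank ratio was 1.35 around PARP1 and 1.17 at the median TSS, and the scaled difference was 0.262 in place of 0.686. Such values are called locally scaled below.

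Nucleotide excision repair had 1 member. ERCC3, the XPB helicase of the general transcription factor TFIIH, had 1.58 in TY-CFAP20 and 0.755 in WT. Its flanks were at 0.857 and 0.672. The difference of 0.828 was the fourth largest of the members and lay mostly inside the gene, by 0.528 more in the first 1 kb downstream than upstream. It was also the only member with an annotated start of the opposite strand within 1 kb upstream, a long non-coding RNA 35 bp away.

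Genes of double-strand break and crosslink repair ranged from just above the median TSS to below 0. RIF1, which opposes resection of broken ends and times replication, had 1.64 in TY-CFAP20 and 0.965 in WT, with flanks of 0.760 and 0.903. In the 100 bp bin centred at -100 bp, TY-CFAP20 at RIF1 reached 2.69 against 0.715, the largest single-bin difference of the members within 2000 bp (1.98). POLQ, the polymerase of theta-mediated end joining, had 1.29 and 0.69995, with one of the lowest BrU-seq levels (0.751). XRCC5, the Ku80 subunit that caps broken ends, had 0.789 and 0.678, with flanks of 0.796 and 0.710. XRCC2, a factor of homologous recombination, had 0.644 and 0.676, with TY-CFAP20 below WT. FANCF, an adaptor of the Fanconi anaemia core complex, had 0.893 and 0.594, and its WT density was below its WT flanks (0.752).

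The replicative polymerase subunits shared a modest median of 0.398. POLD2, an accessory subunit of polymerase delta, had 1.53 in TY-CFAP20 and 0.735 in WT, and in the flanks 0.599 and 0.672. At 14.6, its BrU-seq level was the highest of the members. POLD3, of the same enzyme, had 1.14 and 0.751. POLE4, a small histone-fold subunit of polymerase epsilon, had 1.67 and 1.27. POLE4 is thus high in TY-CFAP20 and in the untagged cells alike, with a WT density above that of 98.0% of TSSs and flanks of 0.659 and 0.789. Within 250 bp of the TSS the median of these 3 genes was 0.931, and the locally scaled median was 0.207.

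PARP family members outside base excision repair had a median of 0.673. PARP4, which resides in vault particles, had 1.38 in TY-CFAP20 and 0.655 in WT, and an origin centre 16.2 kb away. PARP14, a mono-ADP-ribosyltransferase, had 1.31 and 0.636. PARP12, of the same kind, had 0.5999 and 0.720, the lowest difference of the members, and flanks of 0.588 and 0.889. Of the genes that match by symbol only, XRCC6BP1 had 1.79 and 0.864, with flanks of 0.662 and 0.736, and ERCC6L 0.926 and 0.492. FANCD2OS had 0.906 and 0.537. XRCC6BP1 had the lowest BrU-seq level of the members (0.726). Its difference of 0.923 was 0.534 locally scaled, 0.421 within 1000 bp and 0.359 from 0 to 1000 bp.

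Signal around the lowest starts depended on where the gene start was placed. In GENCODE v44 the Ensembl canonical start lies 965 bp downstream of the listed TSS at FANCF, 771 bp downstream at PARP12 and 1884 bp downstream at XRCC5. These were 3 of the 4 members with the lowest differences. The listed TSS of XRCC5 is the start of another annotated transcript, while at FANCF and PARP12 no annotated start of the gene was nearer. Centred on the canonical start, chosen after the data were seen, TY-CFAP20 at XRCC5 was 1.39 against 0.789 at the listed TSS. WT at XRCC5 changed less, from 0.678 to 0.779, and the difference went from 0.111 to 0.611. At FANCF the TY-CFAP20 density was 1.43 at the canonical start and the WT density 0.661, and the difference went from 0.299 to 0.764. At PARP12 it went the other way, from -0.120 to -0.397, with WT at 1.08 and TY-CFAP20 at 0.682.

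Summits lay by the canonical start at these 3 genes. The 100 bp bin with the largest difference within 2000 bp was centred at 1900 bp in XRCC5, with 2.82 in TY-CFAP20 and 1.01 in WT. In FANCF it was at 1200 bp, with 2.26 and 0.477, and in PARP12 at 1000 bp, with 1.47 and 1.15. That is 16, 235 and 229 bp from the canonical start. A summit within 300 bp of the canonical start was found at 16 members (84.2%) and at 50.5% of all TSSs, and one within 300 bp of the listed TSS at 12 members (63.2%) and at 52.4%. Some of the 3000 TSSs have no canonical start within reach of the summit search. Among those with one within 2000 bp, as all 19 members have, 1515 (53.5%) had a summit near it. Of 27 repair genes outside the name rule (described below), 16 (59.3%) had a summit within 300 bp of the canonical start. Among the members, the exceptions for the canonical start were SMC3, POLD2 and POLQ, whose summits were at 600, -600 and 400 bp from the listed TSS.

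**Figure D3:**
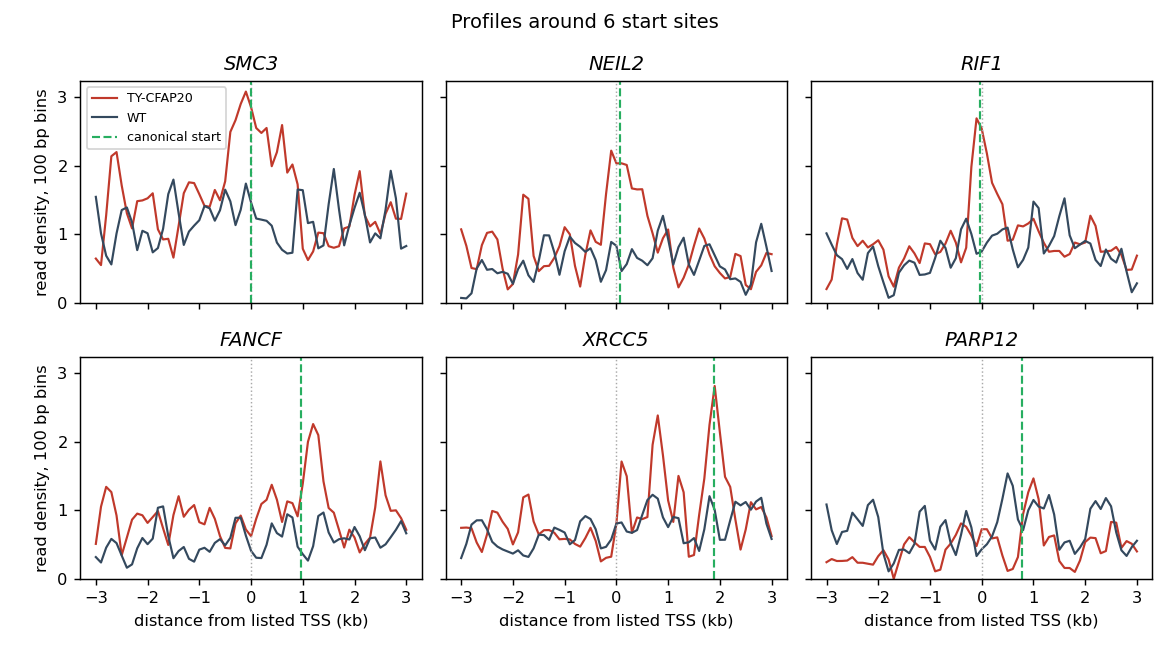
Read density in 100 bp bins against distance from the listed TSS (dotted line) in kb, in TY-CFAP20 (red) and WT (blue). The top row has SMC3, NEIL2 and RIF1, and the bottom row the 3 members whose canonical start (dashed line) is at least 500 bp away. TY-CFAP20 is raised around the listed TSS in the top row, where the largest difference of SMC3 is at 600 bp. In the bottom row TY-CFAP20 peaks beside the canonical start at 965 bp in FANCF and 1884 bp in XRCC5. XRCC5 also has lower TY-CFAP20 peaks between its listed and canonical starts.

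The same was seen beyond the members. Of the 3000 TSSs, 167 had a canonical start between 500 and 4000 bp from the listed TSS. Their median difference was 0.343 at the listed TSS and 0.673 at the canonical start, and it was higher at the canonical start in 111 of them (66.5%). WT moved little, from 0.727 to 0.761. Where the canonical start was within 100 bp, the median difference of 2118 TSSs was 0.589. Of the 141 TSSs whose canonical start was between 500 and 2000 bp away, 80 (56.7%) had their summit within 300 bp of it and 20 (14.2%) within 300 bp of the listed TSS. Over the members, centring on the canonical start raised the median difference from 0.586 to 0.701, and it was 0.611 over all 2856 TSSs that could be measured this way.

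Base composition also differed along the listed TSSs. GC content within 500 bp of the listed TSS was 35.5% at FANCF, 47.2% at PARP12 and 49.1% at XRCC5, the lowest of the members, whose median was 58.2%. All TSSs had a median of 60.4%. At the canonical start GC was 54.6%, 71.8% and 50.8% in the same order, and the differences there were 0.764, -0.397 and 0.611. PARP12 also lies in a low-signal stretch (below). The CpG ratio (observed over expected) at XRCC5 was 0.383 at the listed TSS and 0.881 at the canonical start. Across the 19 members, which share libraries, Spearman's rho between GC content and the difference was 0.72 (Pearson's r 0.63), and across all TSSs it was 0.42 (0.44). With locally scaled differences rho was 0.57 and 0.42. Centred on the canonical start, rho was 0.35 over the members, Pearson's r was -0.05, and rho was 0.37 over the 2856 TSSs. In 5 classes of GC content the median difference of all TSSs was 0.215, 0.528, 0.603, 0.677 and 0.786 in order of rising GC, while median WT density went from 0.732 to 0.804. The part of GC content in the difference was not tested.

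**Figure D4:**
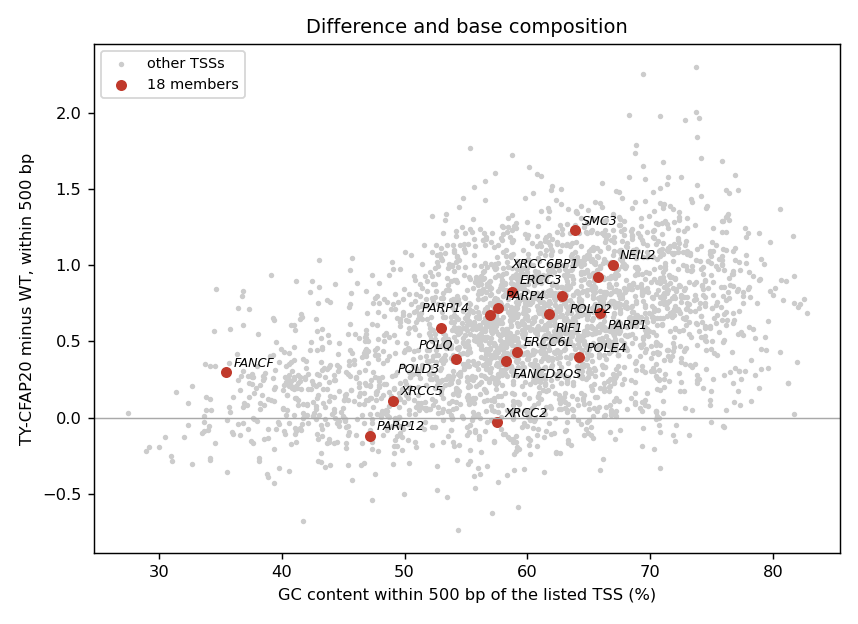
TY-CFAP20 minus WT within 500 bp of the listed TSS against GC content of the same window in %, for 18 of the 19 members (red) and the other TSSs (grey). The 3 members below 50% GC, FANCF, PARP12 and XRCC5, lie at differences of 0.299, -0.120 and 0.111.

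XRCC2 and PARP12, the members with TY-CFAP20 below WT, both lie on the distal long arm of chromosome 7. There the running flank ratio was 0.641 at XRCC2 and 0.635 at PARP12, below 0.75 of its median in a stretch of neighbouring TSSs. Such stretches held 214 of the 3000 TSSs (7.13%), whose median difference was 0.0319 against 0.601 elsewhere. XRCC2 had flanks of 0.301 in TY-CFAP20 and 0.703 in WT, and its TSS window was still above its other windows, the highest of which was at -0.111. The locally scaled difference was 0.329 at XRCC2 and 0.224 at PARP12. Then all 19 members had a positive difference, which 87.6% of all TSSs had, and the members' median was 0.400 against 0.389. With TY-CFAP20 divided by the flank ratio of all TSSs (1.14) instead, 17 members were higher, against 85.3% of all TSSs. POLD2, on the short arm of chromosome 7, was outside these stretches and kept 0.616.

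**Figure D5:**
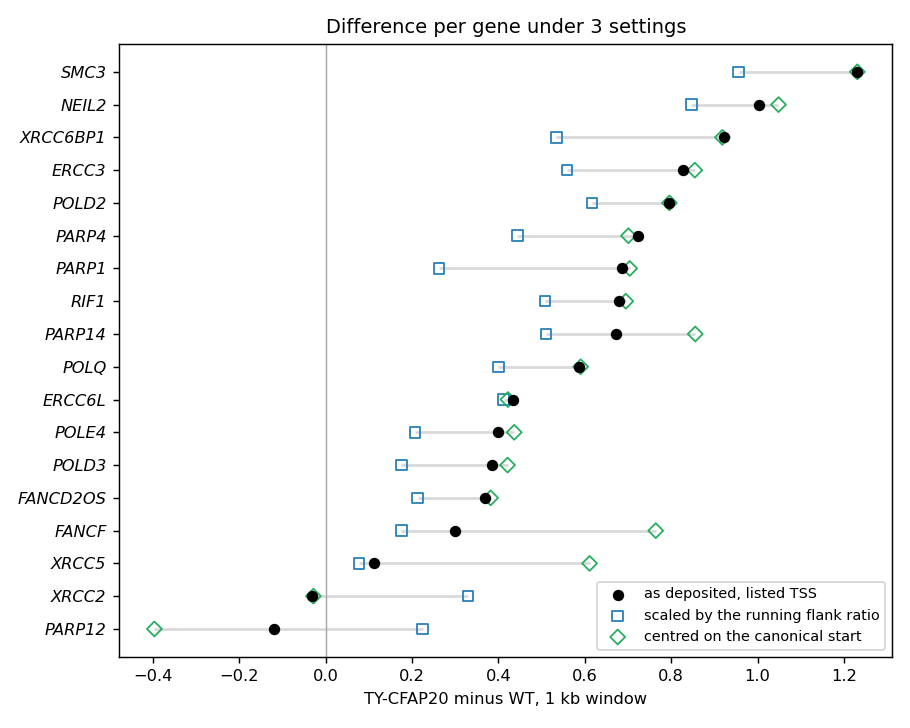
TY-CFAP20 minus WT in a 1 kb window for 18 of the 19 members, as deposited at the listed TSS (dots), with TY-CFAP20 divided by the running flank ratio (squares), and centred on the canonical start (diamonds). XRCC2 and PARP12 change sign with the flank ratio, and XRCC5 and FANCF move to 0.611 and 0.764 at the canonical start.

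Within the 3000 TSSs, whose BrU-seq levels start at 0.693, transcription of the members was close to that of all TSSs at the median. The members' R-loop level was somewhat lower. The median BrU-seq level was 2.75 at the members and 2.55 over all TSSs, and the median DRIP level (a measure of RNA-DNA hybrids, unit not given) was 456 and 528. Across the members rho between the difference and BrU-seq was 0.13, and between the difference and DRIP -0.11, while over all TSSs these were 0.17 and 0.13. XRCC5 had the highest DRIP level of the members (1074) with one of the smallest differences at the listed TSS (0.111). At its canonical start the difference was 0.611. SMC3, with the largest difference, had a DRIP level of 289. FANCF, whose canonical start lies 965 bp from the listed TSS, had the lowest DRIP level (147), below all but 1.75% of TSSs. Members were longer genes, with a median of 36946 bp against 18264 bp. No member had an origin centre within 10 kb, where 6.57% of TSSs did, and 4 had one within 50 kb (21.1%, against 19.4%). These were SMC3, PARP4, POLD2 (29.0 kb) and POLE4 (49.99 kb).

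Promoter motifs were counted in the 300 bases around each listed TSS, as exact letters on both strands. The GC box GGGCGG was present at 11 members (57.9%), at 60.2% of all TSSs and in 45% of 35116 RefSeq promoters of the same length (GRCh38.p14). CCAAT was present at 8 members (42.1%, against 36.3% and 34.6%), CCGGAA at 4 (21.1%, against 25.2% and 17.2%) and TATAAA at POLD3 alone (5.26%, against 8.3% and 11.5%). GGCGGGA, whose first letters can overlap the GC box, was present at 7 members (36.8%, against 21% and 15.4%). These were ERCC3, ERCC6L, POLD2, POLQ, RIF1, XRCC2 and XRCC6BP1, whose differences ran from -0.0320 to 0.923. XRCC5, PARP14 and PARP12 held none of the 5 strings in this window. FANCF held CCAAT only. The canonical starts of XRCC5, PARP14, PARP12 and FANCF lie 1884, 221, 771 and 965 bp downstream of the listed TSS, outside this window. The bases around those starts were therefore not fully searched. A match is a string of letters and not a measured binding site.

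Other repair genes, whose symbols fall outside the name rule, had a median difference of 0.744, against 0.571 over all TSSs. Of 120 such genes listed, 27 were in the density tables, and 26 of them were higher in TY-CFAP20 (96.3%), against 91.2% of all TSSs. At least 1.5-fold were 13 (48.1%, against 34.9%) and at least 2-fold 0. The TY-CFAP20 over WT ratio of their flanks was also higher, at 1.24 against 1.14 over all TSSs. Their TSS ratio was 1.48 times this flank ratio, against 1.497 times over all TSSs and 1.76 times at the members. Locally scaled, their median difference was 0.463, against 0.389 over all TSSs. The largest differences as deposited were at CCNH, the cyclin of the TFIIH kinase (1.111), and at NBN, a subunit of the MRN complex that senses breaks (1.10). The smallest was at NCAPG2, a condensin subunit in a low-signal stretch of chromosome 7 (-0.111, or 0.487 with local scaling). USP1 and DUT, singled out after their values were seen, show that the canonical start was not always the higher site. Their canonical starts lie at 745 and -674 bp from the listed TSS (negative is upstream), and the difference was 0.938 at the listed TSS of USP1 and 0.315 at the canonical start. At DUT it was 0.897 and 0.320. DUT also lies in a low-signal stretch, and its locally scaled difference at the listed TSS (1.30) was the largest of the 27 genes. None of these values has a replicate error, so the order of neighbouring genes is not established.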

How the data were processed

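Crosslinking was with formaldehyde after DSG, per the labels' protocols. The builds hg38 and BDGP6 and the tools STAR 2.7.7a, HOMER 4.8.2, BWA 0.7.17, R 4.0.5, Trim Galore 0.6.5 and SAMtools 1.11 appear, with no role, in the submitters' processing notes. The sources used here do not tie them to values or give the spike-in factor. The authors deposited read density signal in 1001 positions 10 bp apart, averaged over each group of 3 samples and normalised to the spike-in. In each group the values are built from 3 step sizes, the lowest and highest of which (0.0233 and 0.0967 for WT, 0.0425 and 0.100 for TY-CFAP20) set the limits given for fragments per position. BrU-seq and DRIP signal, gene lengths, TSS positions and 2040 origin centres are also the authors' deposited values. A ratio deposited by the authors, headed CFAP20 over WT with no assay named, appears among the closing observations. Columns that could not be tied to a group numbered 0.

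Log2 ratios used a pseudocount of 0.668, near the members' median WT density of 0.700. All ratios are therefore drawn towards 1, those of TSSs with low density the most. Local scaling divides TY-CFAP20 by the flank ratio of 11 neighbouring TSSs, and a low-signal stretch is 5 or more neighbours below 0.75 of the median ratio. Canonical starts, from GENCODE v44, were found for 2965 TSSs, and densities there were measured up to 4000 bp from the listed TSS. GC content came from hg38. Of the members, 13 matched a RefSeq promoter, and FANCD2OS, NEIL2, PARP4, POLD3 and XRCC5 were among those that did not. The values of 1 member are not reported here, though it is part of the counts and medians. No test was possible on group averages. The members and lists were chosen with earlier results of these data known. Members may be named, and full values went to the largest and smallest differences, the highest log2 ratios, the extremes of BrU-seq and the ends of each role group. Window means and low stretches were tested on simulated data. Alternatives covered the window, scaling, pseudocount and members used. Software was matplotlib 3.10.9, scipy 1.17.1, pandas 2.3.3 and numpy 2.4.6 under Python 3.11.15.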

Additional observations from a re-analysis of the deposited data

How the results depend on the processing

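No paired analysis was possible because the values used here are group averages, although the labels number the replicates alike. For the same reason no replicate was left out. Centring on the canonical start and leaving out FANCD2OS were chosen after seeing the data. The causes of the changes were not tested.

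The ratio of 1.72 was 1.99 in a window of 250 bp each way, 1.47 in one of 1000 bp, 1.58 downstream from 0 to 1000 bp, 1.51 scaled to all flanks, 1.53 locally scaled, 1.81 without the low-signal stretches, 1.70 without chromosome 10, 1.69 without the members by symbol only (XRCC6BP1 and ERCC6L), 1.69 without FANCD2OS as well, and 1.78 at the canonical start. In the same order the median difference of 0.586 was 0.766, 0.435, 0.485, 0.426, 0.400, 0.673, 0.559, 0.586, 0.629 and 0.701. The median of the 3 PARP genes was 0.766 at 250 bp each way, 0.550 at 1000 bp, 0.444 locally scaled and 0.701 at the canonical start. That of the 3 polymerase subunits was 0.931, 0.360, 0.207 and 0.436.

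The number of members higher in TY-CFAP20 stayed between 14 of 16 and 19 of 19. The 7 members at 1.5-fold were 11 at 250 bp each way, 0 at 1000 bp, 4 downstream only, 1 scaled to all flanks and 1 locally scaled. They were 9 at the canonical start, 6 without chromosome 10 and 6 without the members by symbol only. With 0.25 times the pseudocount they were 13, with 4 times it 0, and without one 15. The 0 at 2-fold were 1 within 250 bp, 1 with 0.25 times the pseudocount and 6 without one. Shares of all TSSs at 1.5-fold or 2-fold were not computed under these settings. Whether the members moved more than other TSSs is therefore not known. Of 114 gene values under these settings, 4 changed sign, at XRCC2 (0.165 within 250 bp, 0.329 with local scaling) and PARP12 (0.0984 and 0.224). Depth per library is unknown, so single genes have no counting error.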

Other observations

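A column that the comparisons do not use holds, in the authors' deposited table, a ratio headed CFAP20 over WT with no assay named. Over the members its median in the authors' deposited table was 1.02, against 1.14 over all TSSs, and 10 of the 19 members were above 1. High ratios in the authors' deposited table were those of FANCD2OS (1.79) and RIF1 (1.76), and the lowest at XRCC6BP1 (0.383), ERCC6L (0.472) and POLD3 (0.621). SMC3, which had the largest TY-CFAP20 difference, stood at 0.670 in the authors' deposited table. XRCC2 and PARP12, in the low-signal stretch of chromosome 7, were at 0.652 and 0.647 there.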
